A study of Mus musculus with 6 samples.

Results

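The 10 genes described here encode enzymes that carry sulfur from methionine through homocysteine and cysteine to taurine and sulfate, namely *Mat1a*, *Mat2a*, *Gnmt*, *Ahcy*, *Bhmt*, *Cbs*, *Cth*, *Cdo1*, *Csad* and *Suox*. They were picked for these roles out of 41388 genes in a table of RPKM values (reads divided by gene length and by the reads counted in the library), which lets levels be set side by side between genes. They were also picked with the values of the *Aloxe3* against β-gal comparison already known. Their differences between the groups are therefore given as a description, and none is offered as a test. In all, 9 of the 10 had a mean of at least 0.5 RPKM over the 6 libraries and entered the fit across the table, and *Bhmt* did not.

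Primary murine hepatocytes, isolated with collagenase from C57BL/6J mice, received adenovirus that expressed either β-galactosidase (β-gal), the control protein, or ALOXE3, an epoxyalcohol-forming lipoxygenase, at 1000000 viral particles per 1000000 cells. RNA was taken 24 hours later, and 3 β-gal libraries (replicates 1, 2 and 3) and 3 *Aloxe3* libraries (replicates 7, 8 and 9) were sequenced in a single run. Both groups were infected, so neither shows uninfected cells, and the infection itself is common to both. The labels do not say whether replicates came from separate cultures or animals. Adjusted p values set each group difference against a spread between these libraries, estimated from the gene and from other genes in the fit. That spread may be technical.

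In the liver, methionine is activated to S-adenosylmethionine, the methyl donor of the cell, and the homocysteine left after methyl transfer is either remethylated to methionine or passed through cystathionine to cysteine (transsulfuration). Cysteine dioxygenase, the product of *Cdo1*, oxidizes cysteine to cysteine sulfinate, which is then turned into hypotaurine and taurine or broken down to sulfite and sulfate. Hepatocytes are a main site of all of these steps, and they conjugate bile acids with the taurine that is made. RNA levels do not show enzyme amounts, and the cysteine dioxygenase protein is known to be regulated through its degradation.

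The libraries held 25521908 to 30399198 counted reads in the *Aloxe3* group and 29575553 to 32431318 in the β-gal group, as derived from the RPKM values, and 1 read on 1 kilobase was worth 0.0308 to 0.0392 RPKM. *Aloxe3* itself was at 1.95 ± 0.18 RPKM (SD, n = 3) in the β-gal and 48.1 ± 7.3 RPKM (SD, n = 3) in the *Aloxe3* libraries, as labelled. The summed RPKM of 8 hepatocyte markers was 5153 to 5184 in the β-gal and 4985 to 5160 in the *Aloxe3* libraries, led by *Alb* at 4362 to 4552 RPKM. Of 24 markers of Kupffer, endothelial, stellate and bile duct cells, 13 passed the filter. By limma 0 of those 13 passed an adjusted p of 0.05, 0 had an unadjusted p under 0.05, and 0 passed with voom, where the shares of all tested genes were 0.394%, 12.7% and 1.37%. With 13 genes these counts do not show that the markers were alike in the groups. Their summed RPKM was 4.25 to 5.95 against 4.21 to 4.98 for Kupffer cells, 24.6 to 28.7 against 24.5 to 28.6 for endothelial cells and 3.39 to 3.94 against 3.54 to 3.86 for stellate cells, with the stellate gene *Lrat* at 0 in every library. The bile duct list summed to 1509 to 1593 RPKM in the β-gal and 1577 to 1716 RPKM in the *Aloxe3* libraries, nearly all of it from *Spp1* (1431 to 1509 and 1484 to 1638 RPKM). *Krt19* overlapped between the groups at 35.7 to 51.0 and 32.9 to 43.2 RPKM, and *Epcam* was under the filter at 0.398 to 0.456 and 0.154 to 0.334 RPKM. In bulk libraries such as these, fewer cells of a type and less RNA per cell cannot be told apart.

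Among the 10 genes, *Cdo1* and *Mat1a* were higher in the *Aloxe3* libraries and lay past the threshold of the fit across the table (limma on log2(RPKM + 1), Benjamini-Hochberg adjusted p under 0.05). *Cdo1*, which commits cysteine to oxidation, was 1.62 times and *Mat1a*, the methionine adenosyltransferase of the adult liver, 1.39 times its β-gal level. The means of the other 7 tested genes differed by between -8.66% (*Gnmt*) and 10.3% (*Csad*), and none of these differences lay past the threshold. So 2 of 9 tested genes were past the threshold, both higher, where 0.394% of the 12693 genes tested were called, and 0.355% were called higher. Since the genes were selected on this comparison, nothing is read from that count. The median log2 difference of the 9 genes was -0.02, against 0.00 for all genes tested.

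Levels in the β-gal libraries spanned 739-fold from *Mat2a* to *Bhmt*. *Mat2a* was the most abundant at 104.7 ± 0.95 RPKM (SD, n = 3), above 96.6% of tested genes, followed by *Cth* at 34.6 ± 2.22 RPKM and *Cbs* at 20.7 ± 0.056 RPKM, and the ranges of these 3 over the libraries were apart from each other. *Ahcy*, *Mat1a* and *Gnmt* came next at 7.69, 7.50 and 7.42 RPKM, and their ranges overlapped each other, so their order is within the spread of the libraries. The place of *Ahcy* may be too low, since reads that align to several places were not counted and much of its transcript is shared with other genes. *Suox* was lower at 5.02 RPKM. *Cdo1* at 3.57 and *Csad* at 3.39 RPKM, the enzymes of successive steps to taurine, overlapped in range and stood above 35.0% and 34.2% of tested genes. *Bhmt* was at 0.142 RPKM.

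**Figure D1:**
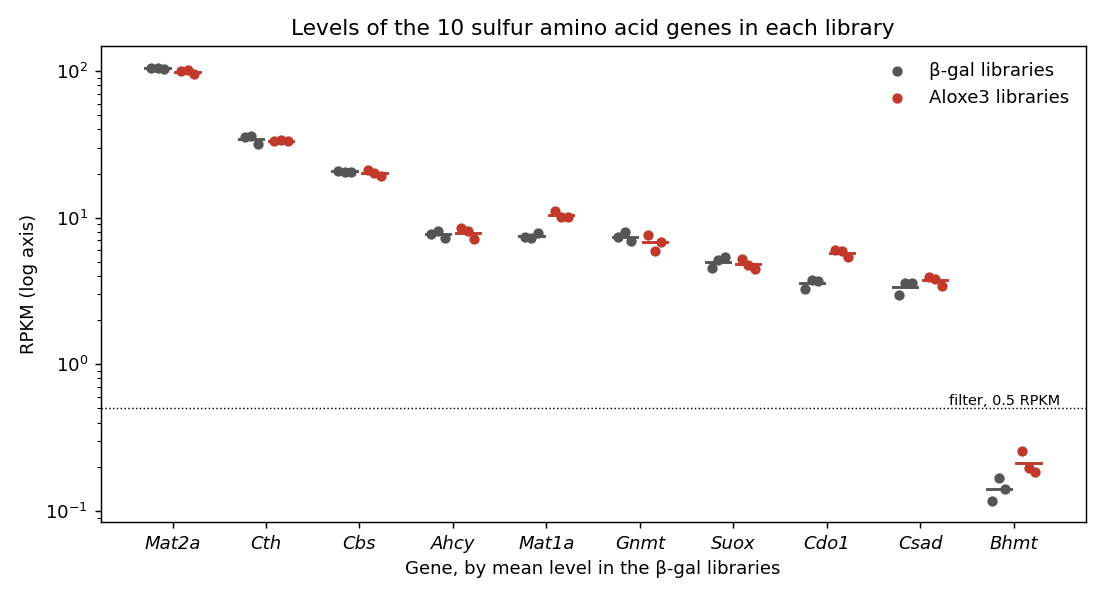
RPKM of the 10 genes on a log axis, with 1 point for each library (grey, β-gal; red, *Aloxe3*), a bar at each group mean and a dotted line at the filter of 0.5 RPKM. The red points of *Cdo1* (5.39 to 6.02 RPKM) and *Mat1a* (10.1 to 11.1 RPKM) sit above the grey points (3.26 to 3.73 and 7.30 to 7.80 RPKM), and *Bhmt* lies under the dotted line.

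Methionine activation is catalysed by the products of *Mat1a* and *Mat2a*, of which *Mat1a* is the form of differentiated hepatocytes and *Mat2a* the form of most other tissues and of growing or dedifferentiating liver cells. *Mat1a* (ENSMUSG00000037798, chr14:41105035-41124412, plus strand; all coordinates are of GRCm38 and span the whole gene) was at 7.39, 7.30 and 7.80 RPKM in β-gal replicates 1, 2 and 3, and at 11.1, 10.1 and 10.1 RPKM in *Aloxe3* replicates 7, 8 and 9. All 3 *Aloxe3* libraries were above all 3 β-gal libraries. The means were 7.50 ± 0.27 and 10.4 ± 0.56 RPKM (SD, n = 3 each). The log2 difference was 0.43 (SE 0.05), ranked 28 among the 50 genes past the threshold, counted from the highest value down. *Mat1a* rested on 740 to 989 reads per library. In 7 of 13 processing alternatives *Mat1a* was not past the threshold, namely without a filter on low values (0.43) and when any library was left out (0.39 to 0.45).

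*Mat2a* (ENSMUSG00000053907, chr6:72432799-72439558, minus strand) was at 104.6, 105.6 and 103.7 RPKM in the β-gal libraries and at 99.5, 101.3 and 95.9 RPKM in the *Aloxe3* libraries. Here the *Aloxe3* libraries were all below the β-gal libraries, with a mean that differed by -5.51%, against 39.2% for *Mat1a*. The log2 difference was -0.08 (SE 0.03), which was not past the threshold, although its unadjusted p was under 0.05, as was that of 12.7% of all tested genes. *Mat2a* therefore remained the more abundant form by far in both groups. Its ratio to *Mat1a* is given with the ratios between members. The deposited values count only unambiguous reads, and 11.4% of the 50-base windows of the longest annotated *Mat2a* transcript also occur in 3 other annotated genes, 1 of them the lincRNA *6030443J06Rik*, which was at 0.488 to 0.625 RPKM.

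*Gnmt* encodes glycine N-methyltransferase, which disposes of excess S-adenosylmethionine by methylating glycine. *Gnmt* (ENSMUSG00000002769, chr17:46725664-46729168, minus strand) was at 7.32, 7.95 and 6.98 RPKM in the β-gal and 7.57, 5.92 and 6.84 RPKM in the *Aloxe3* libraries. The groups overlapped, and *Aloxe3* replicate 8 was the lowest of the 6 libraries. The log2 difference was -0.12 (SE 0.08), not past the threshold.

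*Ahcy* encodes S-adenosylhomocysteine hydrolase, which frees homocysteine. *Ahcy* (ENSMUSG00000027597, chr2:155059310-155074497, minus strand) was at 7.76, 8.07 and 7.24 RPKM in the β-gal and 8.51, 8.05 and 7.10 RPKM in the *Aloxe3* libraries, with overlapping groups. Its log2 difference of 0.03 (SE 0.07) was not past the threshold, and its sign turned when β-gal replicate 3 (-0.0079) or *Aloxe3* replicate 7 (-0.021) was left out. The level of *Ahcy* is uncertain. Of the 2494 windows of 50 bases in its longest annotated transcript, 77.0% also occur in 1 or more of 4 other annotated genes (*Gm4737*, *Gm4913*, *Gm5638* and *Gm9826*), and the deposited values count reads that align to a single place. The 4 copies were each at 0 to 0.127 RPKM.

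*Bhmt*, which encodes the enzyme that remethylates homocysteine with betaine (ENSMUSG00000074768, chr13:93616675-93637961, minus strand), was at 0.117, 0.167 and 0.140 RPKM in the β-gal and 0.255, 0.196 and 0.184 RPKM in the *Aloxe3* libraries. The *Aloxe3* values were all above the β-gal values, but they rest on 21 to 36 reads per library and were under the filter, so *Bhmt* was not tested. Its means were 0.142 ± 0.025 and 0.212 ± 0.038 RPKM (SD, n = 3). Groups that did not overlap were common across the table, with the *Aloxe3* libraries above in 11.2% and below in 8.71% of tested genes. Of the 9 tested genes, *Cdo1* and *Mat1a* were apart upwards and *Mat2a* downwards.

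The promoters of *Mat2a* and *Gnmt* are printed because *Mat2a* is the most abundant of the 10 genes and *Gnmt* is one of those whose upstream bases hold AGGTCA, the half-site hexamer of many nuclear receptors. The sequences were read from RefSeq on GRCm38.p6 and were shortened by 2 bases (*Mat2a*) and 3 bases (*Gnmt*) at the 3′ end, so that they stop before the GENCODE start of the gene, which lies that far upstream of the RefSeq start. The *Mat2a* window is chr6:72439559-72439806 and the *Gnmt* window chr17:46729169-46729415, both printed 5′ to 3′ on the minus strand, with capitals marking TGACCT, which is AGGTCA on the other strand.
Mat2a: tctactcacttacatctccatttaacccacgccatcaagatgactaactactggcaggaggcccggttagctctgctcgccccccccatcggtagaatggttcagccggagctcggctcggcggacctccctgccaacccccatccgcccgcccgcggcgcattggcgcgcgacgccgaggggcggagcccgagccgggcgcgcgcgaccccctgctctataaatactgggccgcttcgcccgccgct
Gnmt: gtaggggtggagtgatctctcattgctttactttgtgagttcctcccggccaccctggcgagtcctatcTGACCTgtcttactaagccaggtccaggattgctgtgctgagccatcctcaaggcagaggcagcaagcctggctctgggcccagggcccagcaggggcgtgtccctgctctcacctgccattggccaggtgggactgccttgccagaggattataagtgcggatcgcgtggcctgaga
The letters searched on both strands in the 250 bases before each RefSeq start, from which positions are counted, were AGGTCA, TGATGCAA (an amino acid response element) and TGACNNNGC (an antioxidant response element). Of the 10 genes, 7 had an entry in the promoter table, with 8 windows, and *Cdo1*, *Cth* and *Mat1a* had none. AGGTCA occurred once in *Gnmt*, 181 bases before the start, and once in *Ahcy*, 205 bases before it. In *Bhmt* it occurred 3 times, 234, 72 and 47 bases before the start. It occurred in 14% of all 32851 promoter windows, and 3 or more times in 0.131%. The other motifs had 0 matches in the 8 windows, against 0.791% of all windows for TGATGCAA and 10.2% for TGACNNNGC. The upstream bases of *Mat2a*, *Cbs* and *Suox* were 67.6%, 68% and 74.4% G and C with 29, 21 and 35 CpG sites, where the medians of all windows were 52.4% and 6 sites. Those of *Bhmt* held 48% and 5 sites, and those of *Gnmt* 60.4% and 6 sites. A match is a run of letters and was not tested for binding.

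Transsulfuration joins homocysteine to serine through cystathionine β-synthase (*Cbs*) and splits the product to cysteine through cystathionine γ-lyase (*Cth*). *Cbs* (ENSMUSG00000024039, chr17:31608894-31637238, minus strand) was at 20.7, 20.6 and 20.6 RPKM in the β-gal and 21.3, 20.3 and 19.4 RPKM in the *Aloxe3* libraries. *Cth* (ENSMUSG00000028179, chr3:157894248-157925077, minus strand) was at 35.7, 36.04 and 32.02 RPKM in the β-gal and 33.5, 34.0 and 33.1 RPKM in the *Aloxe3* libraries. In both genes the groups overlapped. The log2 differences were -0.02 (SE 0.04) for *Cbs* and -0.04 (SE 0.05) for *Cth*, not past the threshold, and that of *Cbs* turned to 0.0064 without *Aloxe3* replicate 9.

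The enzyme that draws on cysteine next, cysteine dioxygenase, had the largest log2 difference of the 9 tested genes. *Cdo1* (ENSMUSG00000033022, chr18:46713193-46728395, minus strand) was at 3.26, 3.73 and 3.71 RPKM in β-gal replicates 1, 2 and 3, and at 6.02, 5.91 and 5.39 RPKM in *Aloxe3* replicates 7, 8 and 9. The lowest *Aloxe3* library was above the highest β-gal library. The means were 3.57 ± 0.27 and 5.77 ± 0.34 RPKM (SD, n = 3 each), 61.9% higher in the *Aloxe3* group. The log2 difference was 0.57 (SE 0.06). Among the 50 genes past the threshold it ranked 18 counted from the highest value down, and 10 by p. On reads derived from the RPKM values, 161 to 185 in the β-gal and 218 to 275 in the *Aloxe3* libraries, voom gave a log2 difference of 0.70, and a pseudocount of 0.1 RPKM in place of 1 gave 0.68. In 6 of 12 processing alternatives *Cdo1* was not past the threshold, namely without a filter on low values (0.57) and when any library other than *Aloxe3* replicate 9 was left out (0.52 to 0.59). By voom 1.37% of tested genes were past the threshold, *Cdo1* and *Mat1a* (0.48) among them. None of the 50-base windows of *Cdo1* or *Mat1a* occurred in another annotated gene.

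Cysteine sulfinate decarboxylase, the product of *Csad*, takes the product of cysteine dioxygenase toward taurine. *Csad* (ENSMUSG00000023044, chr15:102176999-102204724, minus strand) was at 2.98, 3.58 and 3.60 RPKM in the β-gal and 3.96, 3.82 and 3.42 RPKM in the *Aloxe3* libraries. The groups overlapped through *Aloxe3* replicate 9, and the log2 difference of 0.11 (SE 0.07) was not past the threshold. *Csad* shares 1476 bases with *Zfp740* on the other strand, a gene with up to 2444 reads. The library protocol names no step that marks strand, so reads there cannot be told apart by strand. On the other strand *Gm26904* spans all 3505 bases of *Gnmt* with up to 8 reads, and *Gm15622* shares 3252 bases with *Bhmt* and was at 0 in every library. Reads in those stretches cannot be told apart by strand either. Only unambiguous reads were counted, so reads on exons of both genes of a pair were left out of the values.

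*Suox* encodes sulfite oxidase, which makes sulfate in mitochondria. *Suox* (ENSMUSG00000049858, chr10:128669894-128674073, minus strand) was at 4.54, 5.16 and 5.35 RPKM in the β-gal and 5.25, 4.75 and 4.43 RPKM in the *Aloxe3* libraries. These ranges overlapped nearly whole, with a log2 difference of -0.05 (SE 0.07).

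Ratios between members within a library set the 2 higher genes against their neighbours in the pathway. For every 100 RPKM of *Mat2a* there were 7.06, 6.91 and 7.52 RPKM of *Mat1a* in the β-gal and 11.1, 10.0 and 10.5 RPKM in the *Aloxe3* libraries. The groups were apart, at 7.16 ± 0.32 and 10.5 ± 0.56 (SD, n = 3). The sum of the pair was 112.2 ± 0.71 RPKM in the β-gal and 109.3 ± 2.90 RPKM in the *Aloxe3* libraries. Every *Aloxe3* sum (106.0 to 111.4 RPKM) was below every β-gal sum (111.5 to 112.9 RPKM), but the nearest sums, 111.40 and 111.53 RPKM, were close. Most of each sum was *Mat2a*, itself apart downwards, as were 8.71% of tested genes. For every 100 RPKM of *Csad* there were 109.3, 104.1 and 103.2 RPKM of *Cdo1* in the β-gal and 151.9, 154.7 and 157.4 RPKM in the *Aloxe3* libraries. This ratio was 105.6 ± 3.3 and 154.7 ± 2.76 (SD, n = 3), a smaller relative spread within a group than the RPKM of either gene had. It rests on 161 to 275 reads of *Cdo1* and 205 to 263 reads of *Csad* per library. With 3 libraries per group, no link between the 2 genes is read from that spread. *Cdo1* per 100 RPKM of *Cth* was 10.4 ± 1.23 in the β-gal and 17.2 ± 0.86 in the *Aloxe3* libraries. The 10 genes together summed to 191.2 to 198.2 RPKM in the β-gal and 185.9 to 196.9 RPKM in the *Aloxe3* libraries, and those ranges overlapped.

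**Figure D2:**
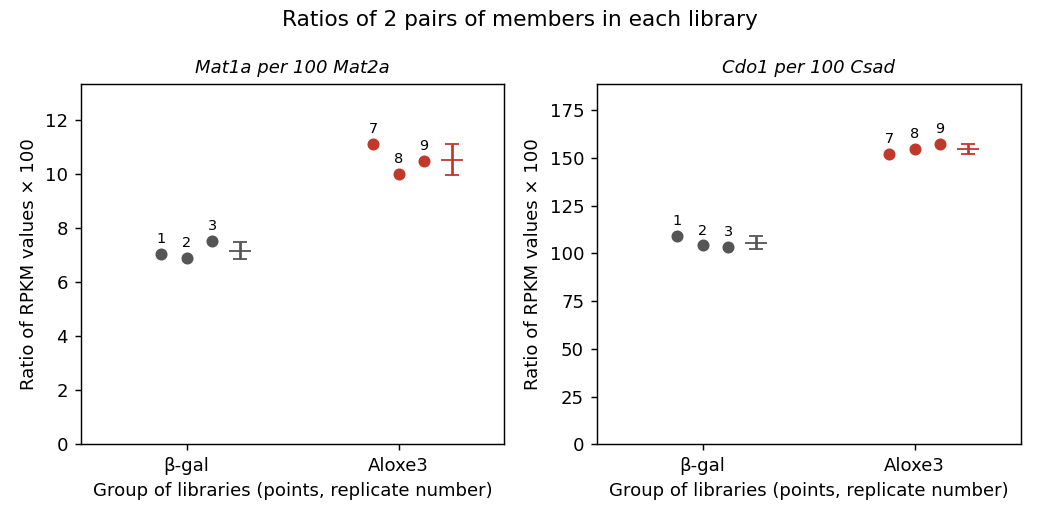
RPKM of *Mat1a* per 100 RPKM of *Mat2a* (left) and of *Cdo1* per 100 RPKM of *Csad* (right), with 1 point for each library, its replicate number above it, and the group mean ± SD beside the points. The *Aloxe3* points lie at 10.0 to 11.1 and 151.9 to 157.4, above the β-gal points at 6.91 to 7.52 and 103.2 to 109.3.

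*Aloxe3* replicate 9 was the lowest of its group for 9 of the 10 genes, the exception being *Gnmt*, and it was the lowest for 46.8% of all tested genes. *Aloxe3* replicate 7 was the highest of its group for 8 of the 10, and for 35.6% of tested genes. Among the β-gal libraries, replicate 2 was the highest for 6 genes (32.7% of tested genes), and replicates 3 and 1 the lowest for 5 and 4 (30.4% and 41.4% of tested genes).

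The tested genes whose log2(RPKM + 1) was most like that of *Cdo1* over the 6 libraries were *C3* (complement component), *Hp* (haptoglobin, an acute phase protein), *Il1a* (the cytokine interleukin 1α), *Alms1* and *Gpt2* (mitochondrial alanine aminotransferase), with Pearson r from 0.990 to 0.997. The libraries form 2 groups of 3, so r mostly carries the difference between the groups and is given as a description. Of these 5 genes, *Hp* and *Gpt2* were past the threshold. *Hp* was at 797 to 847 RPKM in the β-gal and 1136 to 1205 RPKM in the *Aloxe3* libraries. *Mat1a*, with r of 0.98, ranked 25 of 12692 genes, *Csad* (0.72) ranked 1466, and *Mat2a* was opposite in sign at -0.78.

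The 8 hepatocyte markers differed in direction, with log2 differences above 0 in 6 and below 0 in 2 (median 0.04). Of all tested genes, 6647 were above 0 and 6046 below. *Cps1*, the first enzyme of the urea cycle, was at 0.915, 0.988 and 1.05 RPKM in the β-gal and 1.64, 1.29 and 1.56 RPKM in the *Aloxe3* libraries (limma log2 difference 0.33, SE 0.073, adjusted p = 0.161; voom adjusted p = 0.0138). Of the 8 hepatocyte markers 0 passed with limma, 3 had an unadjusted p under 0.05 and 1, *Cps1*, passed with voom, where the shares of all tested genes were 0.394% for limma, 12.7% for the unadjusted p and 1.37% for voom. *Tf*, the transferrin gene, was at 98.8 to 101.8 RPKM in the β-gal and 105.1 to 113.5 RPKM in the *Aloxe3* libraries (adjusted p = 0.264 by limma). *Apoa1* was lower at 217.7 to 234.7 against 241.2 to 246.4 RPKM, with an adjusted p of 0.349 by limma, and *Hnf4a* overlapped between the groups at 25.4 to 28.6 and 25.5 to 29.3 RPKM. Whether hepatocyte state had a part in the values of *Cdo1* and *Mat1a* was not tested.

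Other genes of sulfur metabolism were listed by role in 10 lists with 79 genes, of which 78 had an identifier in the table and 71 passed the filter. By limma 0 of the 71 passed the threshold, 10 had an unadjusted p under 0.05 (6 higher and 4 lower), and by voom 2 passed, *Vnn3* and *Gclc*. Of all tested genes 0.394% passed by limma, 12.7% had an unadjusted p under 0.05 and 1.37% passed by voom. The median log2 difference of the 71 was -0.01, with 30 above 0 and 41 below. In 7 of them the *Aloxe3* libraries were all above and in 10 all below the β-gal libraries, where 11.2% and 8.71% of all tested genes were.

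*Vnn3*, a pantetheinase-family gene in the list of coenzyme A turnover, was at 9.21, 11.4 and 10.5 RPKM in the β-gal and 16.5, 15.8 and 13.4 RPKM in the *Aloxe3* libraries. All *Aloxe3* libraries were above all β-gal libraries, with a log2 difference of 0.51 (SE 0.09) and an adjusted p of 0.0870 by limma, which ranged from 0.0032 to 0.299 over the processing settings. *Gclc*, the catalytic subunit of glutamate-cysteine ligase and the rate-limiting step of glutathione synthesis from cysteine, was at 73.9, 86.6 and 92.3 RPKM in the β-gal and 119.5, 116.6 and 101.3 RPKM in the *Aloxe3* libraries. These groups did not overlap either, and the log2 difference was 0.41 (SE 0.09, adjusted p = 0.161 by limma, 0.0061 to 0.410 over the settings). Within the glutathione list of 11 tested genes the median was 0.07, and the cystine transporter gene *Slc7a11*, next by p after *Gclc*, had a log2 difference of 0.12 with an adjusted p of 0.392 by limma.

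The paralogs and partners of the members did not pass the threshold. *Bhmt2*, which remethylates homocysteine with S-methylmethionine, was at 0.967, 0.737 and 1.01 RPKM in the β-gal and 1.52, 1.05 and 1.196 RPKM in the *Aloxe3* libraries. These values were apart in the same direction as those of *Bhmt*, and the *Aloxe3* mean was 38.8% higher. The log2 difference of 0.24 (SE 0.097), which the added 1 RPKM shrinks at this level, had an adjusted p of 0.362 by limma, and voom gave 0.46 (adjusted p = 0.247). *Mat2b*, the regulatory partner of the *Mat2a* product, overlapped between the groups at 8.18 to 8.36 and 7.48 to 9.14 RPKM. The log2 differences of the *Ahcy* relatives *Ahcyl1* and *Ahcyl2* were -0.01 and 0.02. The smallest p in the list of 10 methionine cycle genes were those of *Bhmt2* and the serine hydroxymethyltransferase gene *Shmt1* (0.11, adjusted p = 0.388 by limma).

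*Sardh* encodes the enzyme that demethylates sarcosine, which the *Gnmt* enzyme makes, and *Dmgdh* the one that demethylates the dimethylglycine left by betaine use. *Dmgdh* was at 2.86 to 3.00 RPKM in the β-gal and 3.18 to 3.59 RPKM in the *Aloxe3* libraries, and *Sardh* at 8.85 to 9.49 and 7.76 to 8.57 RPKM. Neither pair of ranges overlapped, and the log2 differences of 0.16 and -0.15 were opposite in sign, with adjusted p of 0.289 and 0.294 by limma. In the methionine salvage list the smallest p were those of *Enoph1* (-0.12, adjusted p = 0.296 by limma) and *Mri1* (-0.10, adjusted p = 0.348). Among methyltransferases, *Nnmt*, which methylates nicotinamide, had a log2 difference of -0.11 (adjusted p = 0.362 by limma) and *Tpmt* one of 0.11 (adjusted p = 0.499).

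Beyond *Csad*, the 4 tested genes of the taurine and cysteine sulfinate list lay between -0.07 and -0.0016 on the log2 scale. Of the list's 3 genes under the filter, *Gadl1* was at 0 in every library. The others were higher in all *Aloxe3* libraries, by narrow margins and on 16 to 55 reads per library. Among tested genes, 11.2% were apart in this direction. *Fmo1*, whose enzyme oxidizes hypotaurine to taurine, was at 0.165 to 0.344 RPKM in the β-gal and 0.359 to 0.492 RPKM in the *Aloxe3* libraries. *Baat*, whose enzyme conjugates bile acids with taurine, was at 0.271 to 0.349 and 0.356 to 0.526 RPKM. *Got1*, the aspartate aminotransferase that also transaminates cysteine sulfinate, was at 58.2 to 59.8 RPKM in the β-gal and 55.0 to 56.8 RPKM in the *Aloxe3* libraries (adjusted p = 0.433 by limma), and the taurine transporter gene *Slc6a6* overlapped at 86.9 to 90.1 and 84.3 to 87.8 RPKM. In the hydrogen sulfide list *Tstd3* (0.11) and *Tst* (-0.09), in the sulfate list *Papss2* (0.09) and *Impad1* (-0.07), in the coenzyme A list *Vnn1* (0.12) and among methionine sulfoxide reductases *Msra* (-0.09) and *Msrb2* (-0.05) had the smallest p beside those given, with adjusted p of 0.433 to 0.748 by limma.

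**Figure D3:**
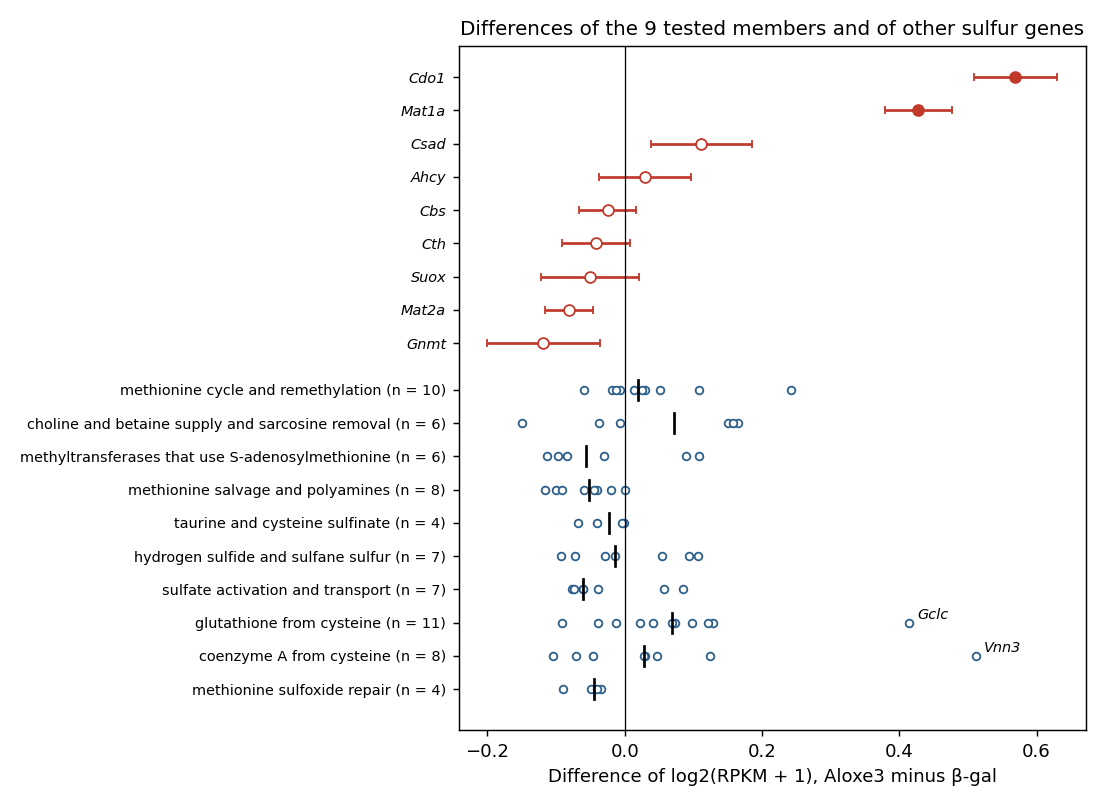
Difference of mean log2(RPKM + 1), *Aloxe3* minus β-gal, for the 9 tested members with SE bars (red, filled where past the threshold) and for the 71 other sulfur genes by list (blue open circles, none past the threshold in limma; black line, list median). *Cdo1* (0.57) and *Mat1a* (0.43) lie to the right of the other members, and *Vnn3* (0.51) and *Gclc* (0.41) to the right of their lists.

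The direction of *Cdo1* and *Mat1a* was the same in every setting tried, but whether they passed the threshold was not. *Cdo1* had a log2 difference of 0.57 without a filter on low values, where it was not past the threshold and 24989 genes were tested, and 0.52 to 0.61 with 1 library left out. With a library left out it was past the threshold only without *Aloxe3* replicate 9 (0.61), and not without β-gal replicates 1 (0.52), 2 (0.59) or 3 (0.59) or *Aloxe3* replicates 7 (0.54) or 8 (0.55). *Mat1a* was past the threshold in none of these 7 settings, at 0.43 without the filter and 0.39 without *Aloxe3* replicate 7 to 0.45 without β-gal replicate 3. With a pseudocount of 0.1, both rescalings, no variance trend or voom, both genes were past the threshold. A filter of 5 RPKM left *Cdo1* untested and *Mat1a* past it.

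**Figure D4:**
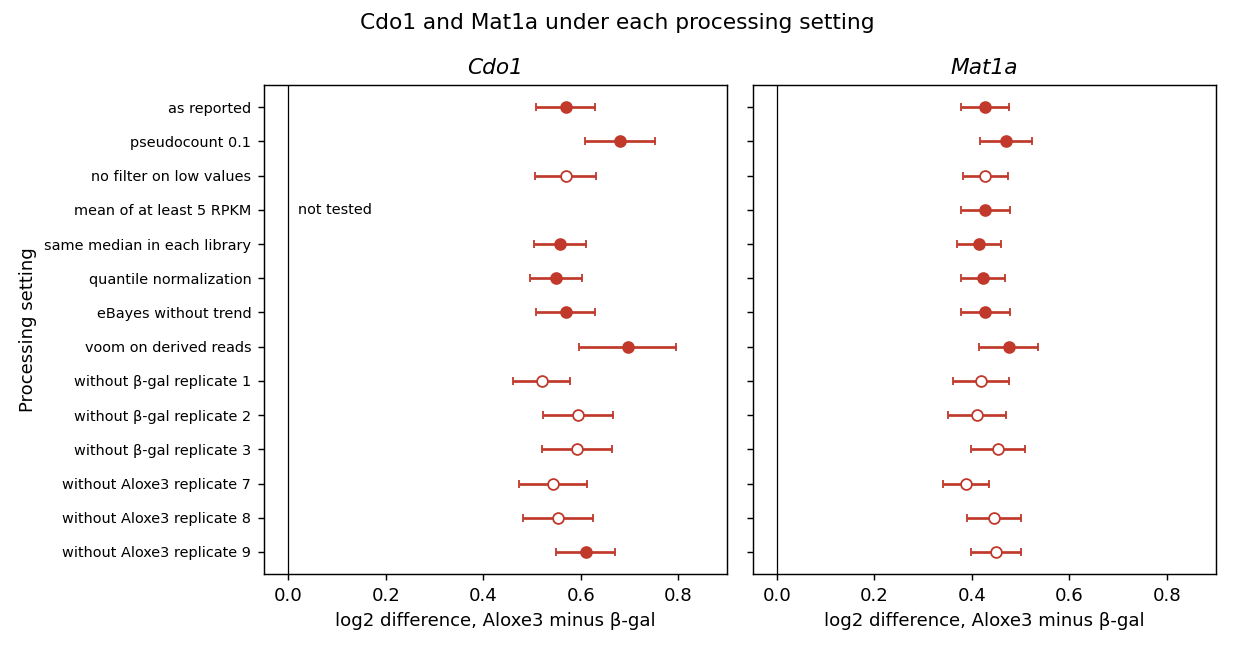
Log2 difference with SE of *Cdo1* (left) and *Mat1a* (right) under each processing setting, filled where the adjusted p was under 0.05. All points lie between 0.39 and 0.70, and the open points are those without a filter and those with a library left out, except *Cdo1* without *Aloxe3* replicate 9.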

How the data were processed

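Polyadenylated RNA of 6 hepatocyte samples was sequenced as single reads of 50 bases. The authors aligned reads with STAR 2.0.4b to the Ensembl release 76 assembly (GRCm38.p2 in the submitters' processing notes), counted uniquely aligned unambiguous reads with featureCounts 1.4.5, and deposited RPKM values for 41388 genes. Identifiers were matched to GENCODE M21 symbols for 40340 genes. Promoter sequences came from RefSeq.

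Genes averaging 0.5 RPKM or more were fitted with limma 3.58.1 (R 4.3.3) on log2(RPKM + 1) over all 6 libraries, with a mean-variance trend, two-sided, and Benjamini-Hochberg adjustment over 12693 genes at 0.05. A fold change on this scale understates the change of low genes. Library sizes were derived from the steps of the RPKM values, and reads of a gene as the lowest whole numbers that give its 6 values (for 8 of the 10 members; the annotated length was used for 2), for a voom alternative. Other alternatives were a pseudocount of 0.1, no filter, a filter of 5 RPKM, equal medians, quantile normalization, no trend, and each library left out. Counts of 2 libraries of a group differed by more than sampling noise (chi-square per degree of freedom 3.76 to 11.0).

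The members and lists were chosen with earlier results of these data known. Genes named besides the members were, for each list, the 2 with the smallest p, the paralogs *Mat2b*, *Bhmt2*, *Ahcyl1* and *Ahcyl2*, and the 5 most like *Cdo1*, and *Aloxe3* as the check of the labels. *Alb*, *Lrat*, *Fmo1*, *Baat*, *Gadl1*, *Spp1*, *Krt19*, *Epcam*, *Cps1*, *Tf*, *Apoa1*, *Hnf4a* and the genes that overlap or share sequence with a member were named after their values were seen. The fit was run on simulated reads with known changes and 1 fixed setting of the spread between libraries for all genes. It called 12 of 49 genes changed 1.25-fold, 37 of 49 changed 1.5-fold and 4 of 12501 unchanged genes. A gene not past the threshold may therefore still differ.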

Additional observations from a re-analysis of the deposited data

How the results depend on the processing

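The number of genes past the threshold over the whole table, 50, was 7 without a filter on low values, 174 with voom on derived reads, 47 (of 7366 tested) with a filter of 5 RPKM, and 6 to 19 with 1 library left out. Of the 10 members 2 were past it, against 0 without a filter (limma, 4 with an unadjusted p under 0.05, as had 2188 of all 24989 genes), 1 with a filter of 5 RPKM, where *Cdo1* was not tested, and 0 to 1 with 1 library left out (2 to 3 with an unadjusted p under 0.05, as had 1039 to 1835 of all genes tested). Of the other sulfur genes 0 were past it, against 1 with a filter of 5 RPKM (*Vnn3*) and 2 with voom. The log2 difference of *Cdo1* was 0.57 without a filter and 0.52 to 0.61 with 1 library left out, and in 6 of 12 alternatives it was not past the threshold. *Mat1a* was not past it in 7 of 13 alternatives. Signs turned for *Cbs* when *Aloxe3* replicate 9 was left out (0.0064, range -0.058 to 0.0064 with 1 library left out) and for *Ahcy* when β-gal replicate 3 (-0.0079) or *Aloxe3* replicate 7 (-0.021) was left out (range -0.021 to 0.095). Without a filter more genes were tested, and with a library left out fewer libraries entered; other causes of these changes were not tested. The share of called genes that were higher was 90% as reported and 71.4% (5 of 7) without a filter.

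Depth limits *Bhmt*, at 21 to 36 reads per library, and unique alignment limits the level of *Ahcy*. No paired analysis was made, because the labels do not say whether any library of one group belongs with a library of the other.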
